A study of Homo sapiens with 10 samples.

Results

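The genes described here encode the subunits of the mitochondrial respiratory chain, both those in the nuclear genome and those in the mitochondrial genome. They were taken from the gene count table by symbol: all rows beginning with NDUFA, NDUFB, NDUFC, NDUFS, NDUFV, UQCR, SDH, COX4, COX5, COX6, COX7 or COX8, or with MT-ND, MT-CO, MT-CYB or MT-ATP, without pseudogenes and without assembly factors named NDUFAF. Of 60898 rows, 214 carried such a symbol, 123 of them were dropped as pseudogenes, and 85 of the remaining 91 had at least 10 counts in at least 2 libraries. MT-ATP6 and MT-ATP8 end in P and a digit, as pseudogene symbols do, but are genes and were kept. The 85 rows hold 77 subunit genes, 64 nuclear and 13 mitochondrial, and 8 rows that share a prefix but encode no subunit. By complex, the nuclear subunits were 37 of complex I, 4 of complex II, 9 of complex III and 14 of complex IV, with NDUFA4 and NDUFA4L2 placed in complex IV. The mitochondrial ones were 7 of complex I, 1 of complex III, 3 of complex IV and 2 of ATP synthase (complex V). All 85 rows passed the low-count filter of the test over all genes.

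The respiratory chain passes electrons from NADH, at complex I, and from succinate, at complex II, through ubiquinone, complex III and cytochrome c to complex IV, which reduces oxygen. Complexes I, III and IV pump protons, and ATP synthase uses the resulting gradient to make ATP. Complexes I, III, IV and V are built from both genomes, whereas complex II, which is also an enzyme of the TCA cycle, is entirely nuclear. Mitochondrial mRNAs are cut from long transcripts of the whole circle, and MT-ND6 is the only one encoded on the opposite strand. Neural progenitors are known to rely more on glycolysis, and to turn to oxidative phosphorylation as they become neurons.

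RNA-seq was run on NPCs, neural progenitor cells differentiated from the established human embryonic stem cell line H1. STAMBP encodes a deubiquitinating enzyme of the endosomal sorting pathway, and CFLAR an inhibitor of caspase-8 activation. There were 10 libraries, 2 for each of 5 groups. WT has the unedited genotype, KO1 and KO2 both lack STAMBP by their label, and the other groups are labelled as the knockout with STAMBP added (KO+STAMBP) or with CFLAR added (KO+CFLAR). The labels do not say whether a knockout line is 1 clone, which line the cells with an added gene came from, or whether replicates are separate cultures, so p-values reflect library-to-library spread that may be technical.

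The libraries held 16495116 to 20832700 counts. Levels are in CPM, counts scaled to a common library size after edgeR's TMM correction. STAMBP itself was at 45.3 ± 2.71 CPM (SD, n = 2) in WT and 18.6 ± 1.19 (n = 4) in the knockout, but reached 41.5 CPM under the label KO+CFLAR. CFLAR was at 32.3 CPM in WT, 254 CPM in the knockout and 30.4 CPM under the label KO+CFLAR. Both levels go against that label, so these are called the libraries labelled KO+CFLAR throughout. In KO+STAMBP, STAMBP was at 42.9 CPM and CFLAR at 32.1 CPM. Neither gene passed edgeR's test between these 2 groups (adjusted p = 0.888 and 0.737). The summed level of 10 neural progenitor markers was 7290 to 7395 CPM in WT and 3219 to 3235 in the knockout, and that of 10 neuron markers 4202 to 4231 and 823 to 846 CPM. The typical marker fell further than these sums. The median log2 change in the knockout was -2.99 over the progenitor markers, with 1 higher and 8 lower. Over the neuron markers it was -6.44, with 10 lower, beside 39.4% of all genes lower. In the knockout the progenitor genes FABP7 and SOX1 and the neuron gene ELAVL3 were below 1 CPM on average, while the progenitor genes PAX6, NES and VIM were at 208, 661 and 2259 CPM, so only some defining markers of the labelled cell type were present. The sum of 10 epithelial markers was 31.7 to 33.5 CPM in WT and 8302 to 8771 in the knockout, with none of the 10 at 0 in both WT libraries or in all knockout ones. Mesenchymal markers summed to 160 to 164 CPM in WT and 2088 to 2168 in the knockout, but gene by gene they were mixed. By the test described below, 5 of these 10 were higher and 4 lower, beside 76.2% of all genes called. Their median log2 change was 0.31. In the KO+STAMBP libraries and those labelled KO+CFLAR, neuron markers summed to 5955 to 6043 CPM and epithelial markers to 53.5 to 63.1 CPM. Neural progenitor markers there summed to 3855 to 4010 CPM, a sum nearer to the knockout than to WT. The typical marker lay nearer to WT. In KO+STAMBP the median log2 change of the 10 markers was 2.46 against the knockout and -0.70 against WT. Under the label KO+CFLAR these medians were 2.61 and -0.67. The part of these differences in cell makeup in any result below was not tested, and in bulk RNA fewer cells of a type cannot be told apart from less RNA per cell.

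Promoter sequence upstream of the first exon is shown for nuclear subunits with some of the largest changes in the knockout, since subunits of 1 complex moved in opposite directions and their promoters can be read side by side. They were picked after their values were seen. The sequences are from RefSeq, build GRCh38.p14, 5′ to 3′ on the gene's strand, and capitals mark matches on either strand to the SP1 motif GGGCGG, the ETS motif CCGGAAG or the hypoxia motif ACGTG. SDHB (chr1:17054171-17054282, minus strand), COX5B (chr2:97645812-97646039, plus strand) and NDUFV2 (chr18:9102449-9102629, plus strand) rose, and NDUFA10 (chr2:240025403-240025592, minus strand) and NDUFA9 (chr12:4649048-4649094, plus strand) fell.
SDHB: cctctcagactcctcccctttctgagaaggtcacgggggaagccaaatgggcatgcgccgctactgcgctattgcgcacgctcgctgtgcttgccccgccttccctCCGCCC
COX5B: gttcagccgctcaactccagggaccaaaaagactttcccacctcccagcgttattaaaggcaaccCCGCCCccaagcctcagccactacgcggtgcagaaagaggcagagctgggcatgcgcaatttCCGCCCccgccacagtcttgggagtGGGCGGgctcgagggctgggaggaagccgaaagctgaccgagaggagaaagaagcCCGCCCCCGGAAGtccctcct
NDUFV2: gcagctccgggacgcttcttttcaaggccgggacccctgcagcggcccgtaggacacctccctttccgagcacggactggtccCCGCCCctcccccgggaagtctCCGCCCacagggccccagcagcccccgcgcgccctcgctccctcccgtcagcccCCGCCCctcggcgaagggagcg
NDUFA10: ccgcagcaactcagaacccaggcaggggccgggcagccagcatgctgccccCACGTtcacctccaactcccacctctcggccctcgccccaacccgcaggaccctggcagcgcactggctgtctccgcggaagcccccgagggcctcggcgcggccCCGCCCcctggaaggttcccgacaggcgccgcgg
NDUFA9: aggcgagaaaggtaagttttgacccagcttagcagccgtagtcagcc
The stretches differ in length and leave out part of each window, so a stretch without capitals can have motifs in its window. The counts over whole windows follow.

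Of the 64 nuclear subunits, 53 had an entry in the RefSeq promoter table, which gives 250 bases before and 50 after each start. The NRF1 motif was in 22.6% of these 53 and in 6.28% of all 27305 promoters of the table. The YY1 motif was in 11.3% against 1.28%, and the ETS motif in 28.3% against 10.7%. GGGCGG was in 60.4% against 44.6%, and the hypoxia motif in 24.5% against 21.6%. Both strands were searched, NRF1 and YY1 each by 1 fixed 10-base motif, and matches can overlap. Outside the stretches shown, the window of NDUFA9 held 1 NRF1 and 1 YY1 match, and that of SDHB 1 ETS and 1 YY1 match. The whole window of COX5B held 2 ETS matches. The NRF1 motif was in 5 of 22 promoters of subunits that rose in the knockout, 2 of 16 that fell and 5 of 15 that were not called, and the ETS motif in 8, 4 and 3. The SP1 motif was in 13, 10 and 9 of them, or 59.1, 62.5 and 60% of each set, and the hypoxia motif in 4, 4 and 5. YY1's motif was in 3 of the rising, 3 of the falling and none of the 15 not called. By complex, the NRF1 motif was in 4 of 7 promoters of complex III and in 0 of 11 of complex IV. The falling set includes NDUFA5, whose RefSeq start lies 43396 bases from its GENCODE start and whose window held none of these motifs. A match is a description of the letters in this window, not a bound site.

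The mitochondrial mRNAs took a smaller share of the knockout libraries. The 13 mRNAs made up 3.77 and 3.85% of all counts in WT, 2.93 and 3.15% in KO1, 3.13 and 3.20% in KO2, 4.27 and 4.36% in KO+STAMBP and 3.95 and 4.25% in the libraries labelled KO+CFLAR. All 4 knockout libraries lay below both WT libraries, and all 4 others lay above. KO1 replicate 1 was the lowest, and the other 3 knockout libraries, at 3.13 to 3.20%, were also below WT. The 72 nuclear rows, at 0.351 and 0.360% in WT, 0.314 to 0.326% in the knockout and 0.382 to 0.408% in the other 4 libraries, had the same order. These are shares of raw counts, without TMM. In TMM-scaled CPM, nuclear subunits of complex I summed to a mean of 1756 in WT and 1700 in the knockout. The sums were 183 and 233 for complex II, 555 and 613 for complex III, and 857 and 897 for complex IV. With TMM, the nuclear knockout mean was thus below WT for complex I alone, whereas the mitochondrial sum of every complex stayed lower. The 95% Wilson intervals of the shares of all counts, which cover counting error only, reached at most 0.00956 percentage points from the mitochondrial shares. The knockout difference of -0.71 percentage points had p = 0.133 in a two-sided exact permutation test, the smallest that 4 against 2 libraries allow. It is 1 of 5 such tests, each at this floor and with a Benjamini-Hochberg p of 0.133. The others were of the nuclear share, complex II's share, MT-CO1's share, and MT-ND6 counts per MT-ND2 counts. The last joins the mRNA that fell furthest to the one that rose furthest. With so few libraries no difference, however large, could give a lower p. The 5 tests therefore cannot decide whether knockout and WT differ, and no conclusion is drawn from them.

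**Figure D1:**
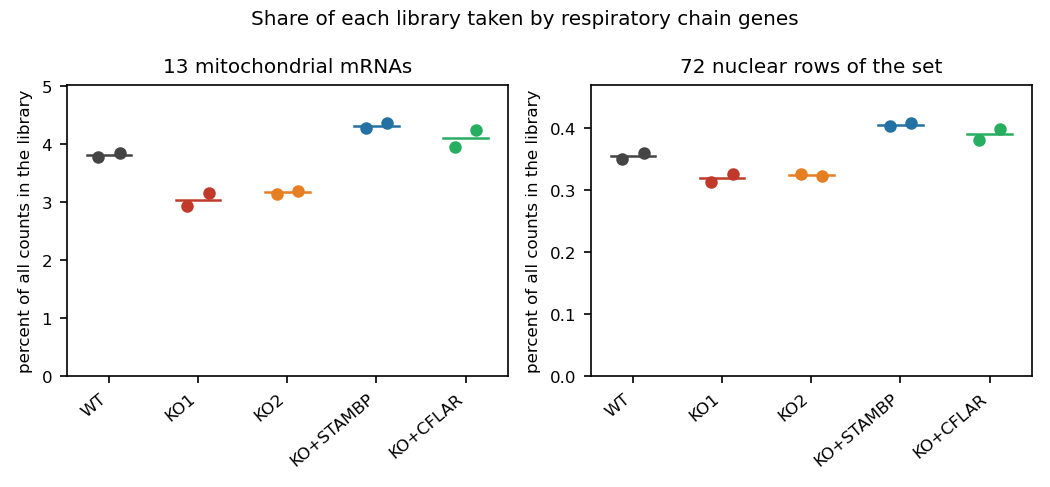
Percent of all counts in each library (points) and the group mean (bars) for the 13 mitochondrial mRNAs (left) and the 72 nuclear rows (right), by group as labelled. The 4 knockout libraries lie lowest in both panels, at 2.93 to 3.20% on the left. The shares are of raw counts, without TMM.

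Per kilobase of transcript, the mitochondrial mRNAs far exceeded the nuclear ones: the median level in WT was 2005 CPM per kb for the 13 mRNAs and 38.6 for the 64 nuclear subunits. MT-CO1, the catalytic subunit of complex IV, was highest at 7658 CPM per kb, and MT-ND3 lowest among the 13 at 1182. The highest nuclear levels were those of COX6A1, at 159, and COX4I1, at 154 CPM per kb, both structural subunits of complex IV.

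Compared with WT, the knockout changed many subunit genes by small amounts. Of the 77 subunits, 29 were higher and 29 lower by edgeR's quasi-likelihood test (Benjamini-Hochberg adjusted p under 0.05 over 21063 genes), beside 76.2% of all tested genes called, 36.8% higher and 39.4% lower. The share called, 75.3%, is near that background and is not a result about these genes. Their sizes were smaller: the median absolute log2 change was 0.25 over the 77 and 0.90 over all tested genes, and 2 of 77 were called and changed at least 2-fold, beside 44.1% of all genes. Those 2 were UQCRHL and NDUFA4L2, both under 5 CPM in WT and in the knockout. The nuclear subunits held 26 higher, 23 lower and 15 not called, with a median log2 change of 0.10 beside -0.04 over all genes.

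Because most changes were small, scaling bears on direction. Under library size alone the median log2 change of all genes moved from -0.04 to -0.22, and the subunits called were 10 higher and 36 lower. The share of called genes that were higher was 48.3% over all genes with TMM, 49.5% with median-of-ratios factors and 41.3% with library size. Under all 3 scalings, 10 subunits were higher: SDHB, SDHC, SDHD, COX5B, COX7A2, NDUFB3, NDUFB5, NDUFB9, NDUFV2 and UQCRC1. 28 were lower under all 3, of which 22 were nuclear and 6 mitochondrial.

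Among the mitochondrial mRNAs the knockout fell furthest at MT-ND6 and MT-ND5, subunits of complex I's membrane arm. MT-ND6 was at 716 and 747 CPM in WT, 429 and 458 in KO1, 453 and 471 in KO2, 884 and 927 in KO+STAMBP, and 721 and 786 in the libraries labelled KO+CFLAR. The knockout libraries were all below the rest, with a log2 change against WT of -0.69 ± 0.04 (SE, edgeR adjusted p = 6.35e-10). MT-ND5 was at 2441 and 2364 CPM in WT, 1626 to 1827 in the knockout and 2384 to 2533 in the other 4 libraries, a log2 change of -0.46 ± 0.03 (edgeR adjusted p = 4.55e-09). MT-CO3, MT-ND1, MT-CO1 and MT-CYB also fell, by 0.27, 0.23, 0.19 and 0.13 on the log2 scale.

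In contrast to these 6, 3 mRNAs rose under TMM and did not pass under library size. MT-ND2 was at 1958 and 2016 CPM in WT and 2166 to 2514 in the knockout (log2 0.27 ± 0.05, and 0.10 under library size). MT-ND4L changed by 0.23 and MT-CO2 by 0.19 (0.05 and 0.01 under library size). MT-ND3, MT-ND4, MT-ATP6 and MT-ATP8 were not called, with values between -0.09 and -0.04, whereas under library size all 4 were lower. Of each library's mitochondrial mRNA, MT-CO1 made up 32.3 and 32.2% in WT and 30.6 to 30.7% in the knockout. It made up 30.4 and 30.1% in KO+STAMBP, below the knockout, and 31.8 and 31.4% in the libraries labelled KO+CFLAR. MT-ND2 made up 5.41 and 5.44% in WT, 6.86 to 7.26% in the knockout and 5.58 to 5.86% in the other 4. Ratios within a library do not depend on scaling. MT-ND6 counts per 100 MT-ND2 counts were 36.5 and 37.1 in WT, 18.5 to 19.8 in the knockout, 38.4 and 38.7 in KO+STAMBP, and 34.6 and 34.3 in the libraries labelled KO+CFLAR. This pair joins the mRNA that fell furthest to the one that rose furthest, so the separation of knockout and WT is a description.

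**Figure D2:**
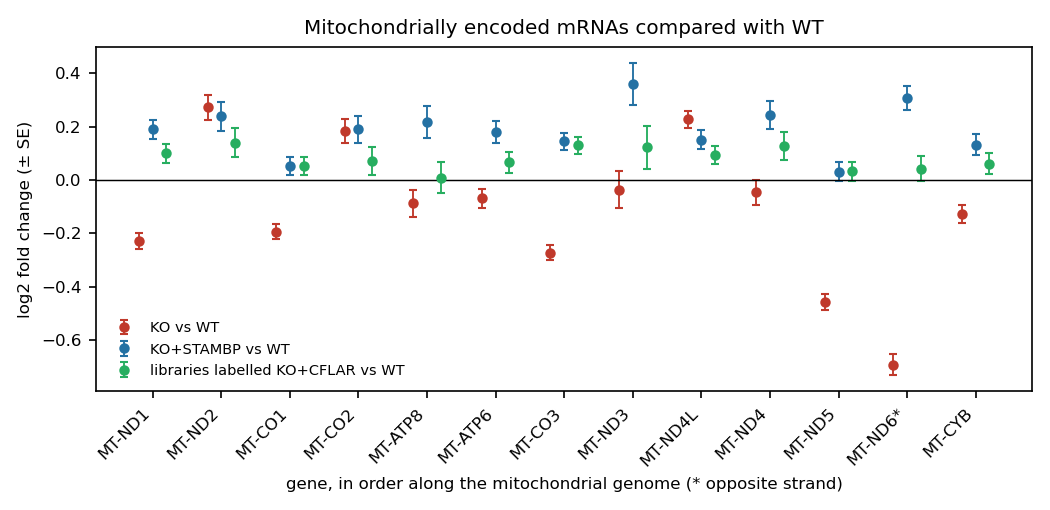
Fitted log2 fold change against WT (points) with its SE (bars) for the 13 mitochondrial mRNAs in genome order, for the knockout, KO+STAMBP and the libraries labelled KO+CFLAR. MT-ND6, on the opposite strand, and MT-ND5 beside it had the lowest knockout values, -0.69 and -0.46.

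MT-ND6 (chrM:14149-14673, minus strand, build GRCh38) directly follows MT-ND5 (chrM:12337-14148, plus strand), and the sources used here do not say whether counting used strand. Without strand, reads of MT-ND6 and of RNA from the opposite strand cannot be told apart. MT-ATP8 with MT-ATP6 and MT-ND4L with MT-ND4 overlap, and nuclear copies such as MTCO1P12, at 876 CPM in WT, share sequence with the mitochondrial mRNAs, so the split of reads between them is uncertain. The mitochondrial ribosomal RNA MT-RNR1 was at 353 ± 28.3 CPM (SD, n = 2) in WT and 488 ± 43.9 (n = 4) in the knockout (log2 0.47, edgeR adjusted p = 1.62e-05), and MT-RNR2 did not pass the test (log2 0.13, edgeR adjusted p = 0.056). MT-RNR1 was also above WT in KO+STAMBP, at 509 CPM (log2 0.53), and under the label KO+CFLAR, at 496 CPM (0.49), so its rise was not particular to the knockout. As a mean share of raw counts, MT-RNR1 and MT-RNR2 together took 0.515% in WT and 0.507% in the knockout.

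In complex I, the nuclear core subunits, which hold the flavin and the iron-sulfur clusters, were mostly lower in the knockout, with 5 of 7 lower, 1 higher and 1 not called. NDUFS1, which carries iron-sulfur clusters, fell from 138 ± 3.75 CPM (SD, n = 2) in WT to 119 ± 1.21 (n = 4) in the knockout (log2 -0.22 ± 0.03, edgeR adjusted p = 5.5e-05). NDUFV2, an iron-sulfur subunit beside the flavin, was at 48.8 and 52.8 CPM in WT, 67.6 and 75.5 in KO1, 76.9 and 76.5 in KO2, and 48.0 to 53.3 in the other 4 libraries (log2 0.54 ± 0.06, edgeR adjusted p = 1.64e-06). The knockout libraries were thus all above the rest for this member, the reverse of NDUFS1, for which they were all below.

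The 30 accessory subunits of complex I, which surround the core and serve assembly and stability, held 12 higher, 11 lower and 7 not called. NDUFB9 had the largest rise of any subunit. It was at 55.0 and 55.6 CPM in WT, 110 and 111 in KO1, 108 and 108 in KO2, 67.3 and 65.7 in KO+STAMBP, and 60.5 and 61.1 in the libraries labelled KO+CFLAR. The knockout was nearly 2-fold above WT (log2 0.98 ± 0.04, edgeR adjusted p = 1.05e-11). NDUFB3 (log2 0.49 ± 0.09) and NDUFB5 (0.35 ± 0.05) also rose.

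The largest falls among accessory subunits were those of NDUFA9, NDUFA6, NDUFA5 and NDUFA10. NDUFA5 was at 110 and 115 CPM in WT, 82.1 and 83.9 in KO1, 75.1 and 82.7 in KO2, 164 and 174 in KO+STAMBP, and 159 and 155 in the libraries labelled KO+CFLAR. The groups did not overlap, and the order was knockout, WT, then the 4 other libraries (knockout against WT, log2 -0.47 ± 0.05, edgeR adjusted p = 2.23e-07). NDUFA9, which sits where the arms of complex I meet, was at 15.42 and 13.99 CPM in WT and 8.26 to 10.6 in the knockout (log2 -0.65 ± 0.10). NDUFA6 was at 52.2 and 53.7 CPM in WT and 30.3 to 37.2 in the knockout (log2 -0.65 ± 0.05). NDUFA10 was at 113 and 112 CPM in WT and 80.4 to 87.1 in the knockout (log2 -0.44 ± 0.04). By gene family within complex I, NDUFA had 3 higher and 6 lower of 13, NDUFB 4 and 4 of 11, and NDUFS 3 and 4 of 8.

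**Figure D3:**
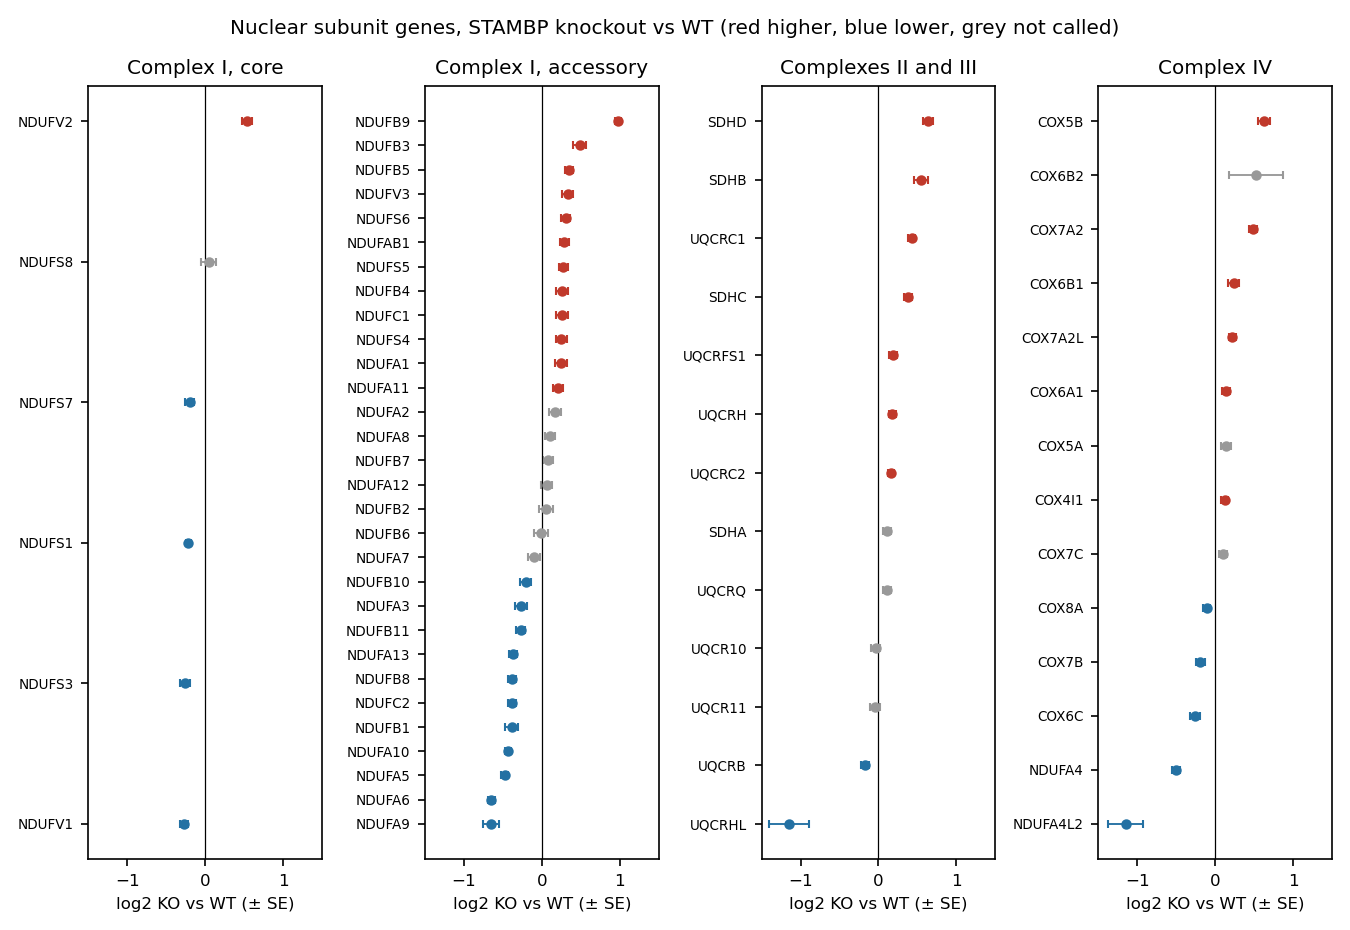
Fitted log2 fold change of nuclear subunits, knockout against WT (points), with the SE (bars), by complex and ordered by value. Red points are higher, blue lower and grey not called at an adjusted p under 0.05; complex II has 3 red points and no blue one.

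All 4 genes of complex II, or succinate dehydrogenase, were above WT in the knockout mean, and 3 passed the test. SDHD, 1 of the membrane anchors, was at 30.3 and 28.6 CPM in WT, 45.5 and 42.1 in KO1, 45.8 and 49.6 in KO2, 28.6 and 28.7 in KO+STAMBP, and 28.8 and 27.2 in the libraries labelled KO+CFLAR. Every knockout library was above every other (log2 0.64 ± 0.06, edgeR adjusted p = 3.11e-07). SDHB, the iron-sulfur subunit, was at 23.4 and 27.3 CPM in WT, 35.0 and 37.4 in KO1, 34.9 and 41.5 in KO2, and 24.7 to 28.1 in the other 4 (log2 0.55 ± 0.09, edgeR adjusted p = 5.05e-05). SDHC, the other anchor, was at 55.6 and 56.5 CPM in WT and 71.0 to 74.7 in the knockout (log2 0.38 ± 0.05, edgeR adjusted p = 5.06e-06). SDHA, the flavoprotein, overlapped between the groups, with 73.8 and 69.6 CPM in WT and 73.4 to 78.8 in the knockout (log2 0.11 ± 0.05, edgeR adjusted p = 0.0501). Its sign turned under library size alone, to -0.07, and SDHA shares sequence with SDHAP1, SDHAP2 and SDHAP3, at 35.2, 28.4 and 70.5 CPM in WT. As a share of all nuclear subunit counts, which no scaling touches, complex II took 5.54 and 5.36% in WT, 6.47 to 6.99% in the knockout, 4.66 and 4.63% in KO+STAMBP, and 4.72 and 4.80% in the libraries labelled KO+CFLAR. The 95% Wilson intervals reached at most 0.216 percentage points from these values.

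Complex III had 4 nuclear subunits higher, 2 lower and 3 not called. Cytochrome c1 (CYC1), whose symbol begins with none of the prefixes, is not in these counts or in the complex III sums. UQCRC1, a core protein of the matrix side, was at 101 and 111 CPM in WT, 138 to 150 in the knockout and 96.6 to 103 in the other 4 libraries (log2 0.43 ± 0.05, edgeR adjusted p = 8.28e-07). UQCRC2, UQCRFS1 and UQCRH were higher by 0.16, 0.19 and 0.18 on the log2 scale, and none of these 3 passed under library size, where UQCRC2 was at -0.02. UQCRB was lower (-0.17). UQCRHL, a close copy of the hinge gene UQCRH, was at 2.21 and 1.81 CPM in WT and 0.771 to 1.04 in the knockout (log2 -1.15 ± 0.26), and reads shared with UQCRH make its level uncertain.

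Complex IV had 6 nuclear subunits higher, 5 lower and 3 not called. COX5B, a matrix-side subunit, was at 29.2 and 30.8 CPM in WT, 41.9 and 41.9 in KO1, 53.6 and 48.8 in KO2, 37.5 and 41.1 in KO+STAMBP, and 33.7 and 39.3 in the libraries labelled KO+CFLAR. The knockout was above all others (log2 0.63 ± 0.07, edgeR adjusted p = 2.3e-06). COX7A2 rose from 47.7 ± 1.69 CPM (SD, n = 2) to 67.0 ± 2.53 (n = 4), with a log2 change of 0.49 ± 0.05. NDUFA4 was at 89.6 and 93.8 CPM in WT, 58.4 to 68.0 in the knockout and 90.9 to 99.4 in the other 4 libraries (log2 -0.50 ± 0.05, edgeR adjusted p = 9.08e-07). Its paralog NDUFA4L2, known as a hypoxia-induced gene that takes NDUFA4's place, was also lower, at 4.19 and 2.98 CPM in WT and 1.43 to 1.87 in the knockout (log2 -1.15 ± 0.23). COX4I1, COX6A1, COX6B1 and COX7A2L were higher by 0.12 to 0.24 on the log2 scale, but under library size none of these 4 passed, and COX4I1 and COX6A1 were at -0.06 and -0.04. COX7B (-0.19) and COX8A (-0.11) were lower. COX7B was not called by DESeq2 (adjusted p = 0.0965) or without WT replicate 2, and COX8A not by DESeq2 (adjusted p = 0.34) or with any of 5 libraries left out. COX6B2, the paralog of sperm, was at 0.989 to 2.71 CPM in WT and the knockout and was not called.

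**Figure D4:**
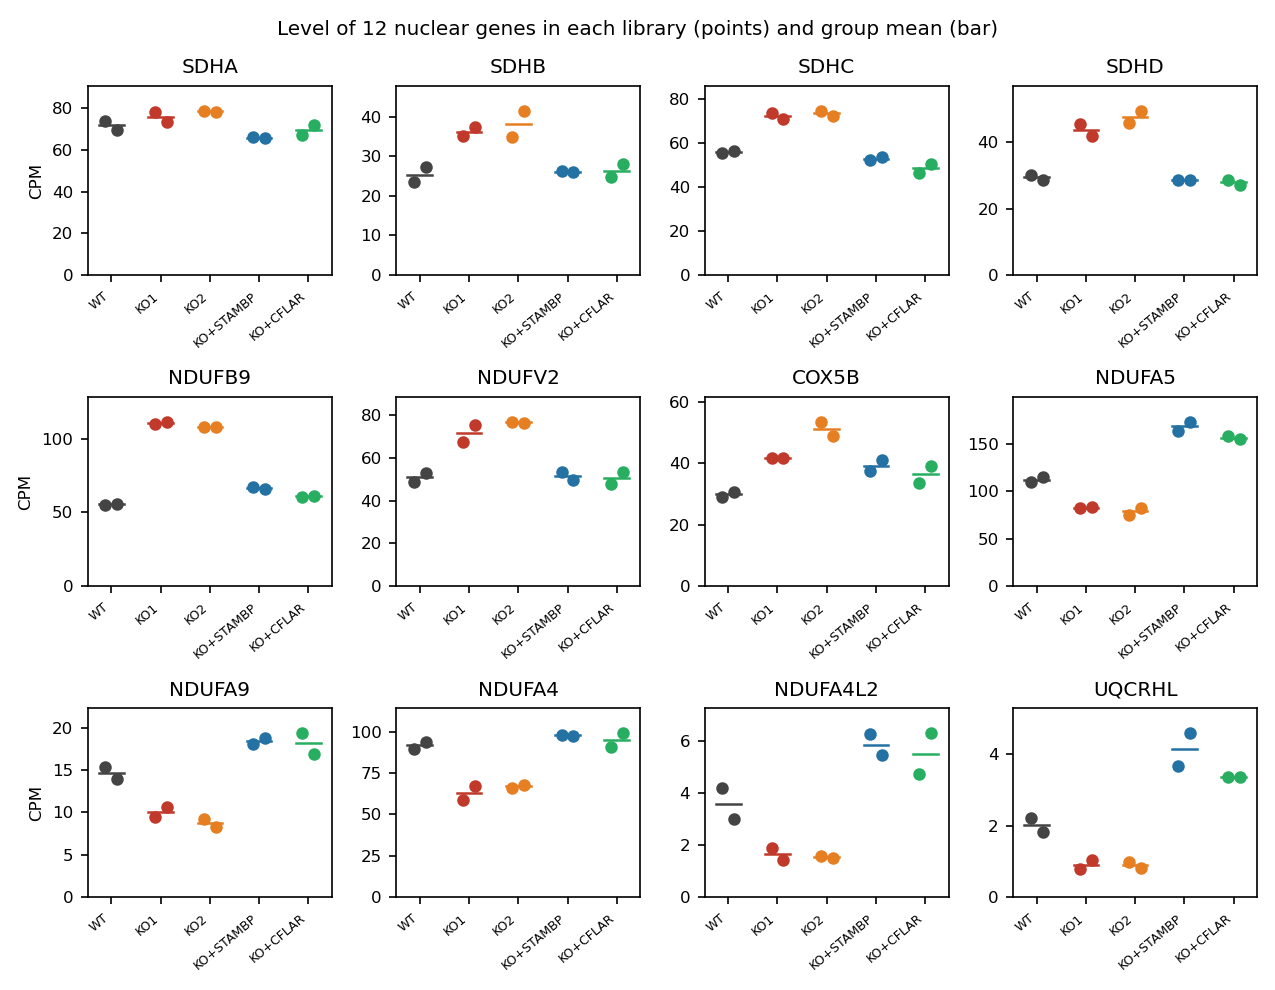
Level in CPM of 12 nuclear genes in each library (points) with the group mean (bar), by group as labelled; every axis starts at 0. SDHB, SDHC, SDHD, NDUFB9, NDUFV2 and COX5B are highest in the 4 knockout libraries, and the last 5 genes from NDUFA5 to UQCRHL are lowest there.

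The other rows of the set were 4 complex II assembly factors, 3 non-coding transcripts and a read-through locus. SDHAF2, which attaches the flavin to SDHA, rose (18.6 to 23.8 CPM, log2 0.35 ± 0.09), and SDHAF1, SDHAF3 and SDHAF4 were not called. NDUFA6-DT, transcribed away from the NDUFA6 promoter, was at 11.9 and 14.4 CPM in WT, 2.60 to 3.30 in the knockout and 14.97 to 17.8 in the other 4 libraries (log2 -2.17 ± 0.14, edgeR adjusted p = 1.72e-09). It moved the same way as NDUFA6 and further: per 100 NDUFA6 counts, it had 22.9 and 26.8 in WT and 6.98 to 10.9 in the knockout. NDUFB2-AS1, at 0.205 CPM in WT and 1.19 in the knockout, was higher, on counts near the 0.144 to 0.182 CPM that 3 counts give in a library. NDUFV2-AS1 and NDUFC2-KCTD14 were not called. Of the 6 rows left out for low counts, tissue-restricted paralogs made up 5: COX4I2 had 0 counts in WT and 15 in the 4 knockout libraries, COX7A1 had 0 and 11, COX8C 0 and 4, COX6A2 1 and 0, and COX7B2 none. UQCRFS1-DT had 36 counts in all.

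Against WT, KO1 had 25 subunits higher and 28 lower and KO2 had 30 and 27, beside 72.9 and 73.1% of all genes called in 2 comparisons that share the WT libraries. In each line 2 of 77 were called and changed at least 2-fold, beside 43% of all genes in KO1 and 42.9% in KO2. Between KO1 and KO2, 0 of 85 rows passed edgeR's test, beside 0.157% of all genes (0.133% higher, 0.0237% lower in KO1, and 0.0522% at least 2-fold). At an unadjusted p under 0.05 there were 11 of 85, 5 of them among the 13 mitochondrial mRNAs, beside 1196 of all 21063 genes. DESeq2 called 0, 2 passed without a low-count filter and 1 without KO1 replicate 2.

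KO+STAMBP was next set against the knockout, whose 4 libraries also enter the comparison with WT, so the signs of the 2 comparisons are not independent. Against the knockout, 38 of 77 subunits were higher and 16 lower, beside 77.9% of all genes called, 40.1% higher and 37.8% lower. At least 2-fold were 4 of 77, beside 46.4%. By complex, nuclear complex I had 17 higher and 8 lower, complex II 0 and 4, complex III 5 and 2, and complex IV 6 and 1. Of the 13 mitochondrial mRNAs 10 were higher, led by MT-ND6 (log2 1.00 ± 0.04, edgeR adjusted p = 6.97e-12), and MT-ND4L was lower (-0.08). SDHA, SDHB, SDHC and SDHD fell by 0.23, 0.51, 0.46 and 0.68 on the log2 scale. NDUFA5 (1.06 ± 0.04), UQCRHL (2.19 ± 0.23) and NDUFA4L2 (1.86 ± 0.21) rose most among nuclear subunits. Under library size alone, 57 subunits were higher and 8 lower, since the median of all genes moved from 0.04 to 0.25, and 36 were higher and 8 lower under all 3 scalings.

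Against the same knockout libraries, those labelled KO+CFLAR had 31 subunits higher and 22 lower, beside 78% of all genes called, 40% higher and 38% lower. At least 2-fold were 2 of 77, beside 46.7%. Complex II again had 0 higher and 4 lower, and the mitochondrial mRNAs 9 and 3. MT-ND6 was higher by 0.74 ± 0.04 (log2, edgeR adjusted p = 2.75e-10) and MT-ND5 by 0.49 ± 0.03, while MT-ND2 (-0.13), MT-ND4L (-0.13) and MT-CO2 (-0.11) were lower. Without KO+CFLAR replicate 1, the rows lower fell from 24 to 15. Under library size, 46 subunits were higher and 9 lower.

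Compared with WT, the KO+STAMBP libraries were above WT for many subunits rather than level with it. Of 77 subunits, 36 were higher and 1, COX8A, was lower, beside 34.9% of all genes called, 16.4% higher and 18.5% lower. The median SE was 0.062 over the subunits and 0.124 over all genes, so a small change passes more readily in the subunits. How much this adds to their count was not tested. Complex IV had 9 of 14 nuclear subunits higher, complex I 12 of 37, complex III 4 of 9 and complex II 0 of 4. The mitochondrial mRNAs had 11 of 13 higher, by 0.13 to 0.36 on the log2 scale, with MT-ND5 (0.03) and MT-CO1 (0.05) not called. NDUFA5 (0.59 ± 0.05, edgeR adjusted p = 4.19e-07), UQCRH (0.49 ± 0.05) and COX7A2 (0.48 ± 0.06) were the best supported. The median size was small, 0.15 in absolute log2 change beside 0.28 over all genes, and 1 subunit, UQCRHL, was called and over 2-fold, beside 7.28% of all genes. Without WT replicate 1 the rows called fell from 37 to 23, and without KO+STAMBP replicate 2 to 24.

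The libraries labelled KO+CFLAR had 23 subunits higher than WT and 2 lower, COX8A and SDHC, beside 33.7% of all genes called, 15.8% higher and 17.9% lower. None of the 77 was called and reached 2-fold, beside 6.92% of all genes. Here too the median SE was smaller over the subunits, 0.061 beside 0.123 over all genes. NDUFA5 (log2 0.48 ± 0.05, edgeR adjusted p = 2.92e-06), NDUFB11 (0.40 ± 0.06) and COX7A2 (0.39 ± 0.06) had the lowest adjusted p-values, and UQCRHL (0.74) and NDUFA4L2 (0.63) the largest changes among the subunits called. MT-ND1 and MT-CO3 were the mitochondrial mRNAs higher. The count is fragile: of the 85 rows, 26 were called, but 9 without WT replicate 1, 14 without WT replicate 2 and 10 without KO+CFLAR replicate 2, and DESeq2 called 13. COX7A2 was at 46.6 to 48.9 CPM in WT and at 62.3 to 69.1 in all 8 other libraries, and COX8A was at 65.2 and 66.8 CPM in WT and at 56.4 to 63.6 in all others. For these, the knockout, KO+STAMBP and the libraries labelled KO+CFLAR lay on the same side of WT. They were not the only such subunits. With TMM, NDUFB9, COX5B, UQCRC2, UQCRH, COX4I1, COX6A1 and COX7A2L were also called higher than WT in each of these comparisons. Of these, NDUFB9 and COX5B were higher in the knockout under all 3 scalings.

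Between the libraries labelled KO+CFLAR and KO+STAMBP, 1 of the 85 rows differed by edgeR's test, beside 1.09% of all genes. MT-ND6 was lower in the former (log2 -0.27 ± 0.05, edgeR adjusted p = 0.0145). It was the lone call under all 3 scalings, but no row passed without KO+STAMBP replicate 1, without KO+STAMBP replicate 2 or without KO+CFLAR replicate 1. At an unadjusted p under 0.05 there were 13 of 85, beside 2597 of all 21063 genes, and DESeq2 called 3.

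Other genes of the pathway, in lists chosen with earlier results of these data known, were read in the same fit of knockout against WT, in which 76.2% of all genes were called, 36.8% higher and 39.4% lower. Each list's count is to be read against these shares. Among 18 other ATP synthase genes, 8 were higher and 4 lower, with ATP5MC3, of the proton-carrying ring, at 71.6 CPM in WT and 110 in the knockout (log2 0.61) and ATP5F1A, of the catalytic head, at 431 and 344 (-0.33). Of 14 genes of electron carriers, ubiquinone synthesis and cytochrome c1 of complex III (CYC1), 2 were higher and 7 lower. ETFA, of the electron transfer flavoprotein, rose by 0.78 and COQ7, of ubiquinone synthesis, fell by 0.86 on the log2 scale. Complex I assembly factors had 7 higher and 4 lower of 14, with TIMMDC1 at 0.66 and NDUFAF5 at -0.60. Complex III and IV assembly factors had 10 and 10 of 28, with larger single falls: CMC2 was at 51.7 and 15.3 CPM (log2 -1.76) and COX20, a chaperone of MT-CO2, at 83.6 and 37.0 (-1.18).

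Regulators of respiratory genes had 12 higher and 5 lower of 24. PPRC1, a PGC-1-related coactivator, was at 43.1 ± 1.61 CPM (SD, n = 2) in WT and 93.2 ± 3.60 (n = 4) in the knockout (log2 1.12 ± 0.05, edgeR adjusted p = 4.61e-11). YY1, whose motif is given above, was at 133 and 211 CPM (0.67), and FASTKD4, which binds mitochondrial mRNAs, at 29.98 and 57.3 (0.93). The pyruvate dehydrogenase and TCA cycle list had 10 higher and 6 lower of 17, with OGDH at 83.3 and 225 CPM (1.43) and IDH2 at 117 and 65.6 (-0.83). In the hypoxia list, 11 of 14 tested genes were higher and 1 lower, with a median log2 change of 1.44: LDHA, which makes lactate, was at 32.7 and 365 CPM (3.48), and the glucose transporter SLC2A1 at 169 and 719 (2.09). In KO+STAMBP these 2 were at 41.5 and 88.6 CPM. The median over the 77 subunits was 0.05.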

How the data were processed

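The values used are gene counts as deposited by the authors in 1 table of the whole series, with no normalization. Per the submitters' processing notes, fastp 0.20.0, RSEM 1.2.4 and DESeq2 were used with hg38 (GRCh38); the role and order of these tools, the annotation and the strand setting are not given in the sources used here, and 22 of the 85 rows carry a locus name of a transcript assembly beside the symbol. All 85 symbols were found in GENCODE release 29. Libraries held 16495116 to 20832700 counts, so 3 counts correspond to 0.144 to 0.182 CPM. No pair of replicates was a duplicate: counts differed beyond sampling noise in every group (chi-square 1.93 to 3.59 per gene).

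All 10 libraries were fitted together with edgeR 4.0.16 (R 4.3.3): filterByExpr left 21063 genes, TMM scaling, 5 groups, 5 residual degrees of freedom, quasi-likelihood F test, Benjamini-Hochberg adjustment over all genes, calls at 0.05. The knockout is the mean of KO1 and KO2. The SE is the log2 change divided by the square root of F. The script was tested on simulated data. Alternatives were DESeq2 1.42.0, other scalings and filters, a replicate block, each library left out, and, chosen after seeing the data, both libraries labelled KO+CFLAR left out. Named genes were a fixed list of subunits, the 5 largest changes in each direction in knockout against WT and the 3 largest each way against WT in KO+STAMBP and under the label KO+CFLAR among other nuclear subunits, and up to 3 genes of each pathway list by adjusted p; other members were named where a count or complex was described, with their values in view. Members and lists were chosen with earlier results of these data known. The values of 1 gene are not reported here, and it is not drawn in the plot of nuclear subunits, although counts include it.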

Additional observations from a re-analysis of the deposited data

Results flagged for a closer look

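Among the 4 knockout libraries, 11 of the 85 rows had a library that stood apart from the other 3 by Dixon's criterion, which chance meets in about 1 in 20 groups. That rate is for independent groups of like samples. Here all rows share the same libraries, which come from both KO1 and KO2, and only the 85 rows were checked. The count is thus not to be read against that rate. KO1 replicate 1 was the lowest for MT-ND3 at 326 CPM, MT-CO2 at 2934 CPM, NDUFV2 at 67.6 CPM, COX7A2 at 63.2 CPM and NDUFA1 at 23.8 CPM, and it also had the smallest mitochondrial share of counts. KO1 replicate 2 was the lowest for UQCRC2 at 124 CPM and SDHA at 73.4 CPM, and the highest for NDUFS4 at 33.2 CPM and NDUFA2 at 26.9 CPM. KO2 replicate 2 was the highest for NDUFB5 at 57.5 CPM and NDUFS7 at 30.9 CPM. MT-ND6 differed in the libraries labelled KO+CFLAR against KO+STAMBP, with a log2 change of -0.27.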

How the results depend on the processing

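Of 784 refits of the 42 named subunits in knockout against WT, 728 kept direction and side of the threshold, 29 no longer passed, 22 newly passed and 5 changed sign: under library size alone, COX4I1 (-0.0561), COX6A1 (-0.0375), SDHA (-0.0676) and UQCRC2 (-0.0177), and without KO1 replicate 1, MT-ND3 (0.052, with a range of -0.1401 to 0.052 over libraries left out). With library size alone, rows higher in knockout against WT were 11, rows lower than the knockout were 8 (KO+STAMBP) and 10 (labelled KO+CFLAR), and rows lower than WT in KO+STAMBP were 0. DESeq2 also gave 0 for the last, and gave 13 called, 12 higher and 1 lower for the libraries labelled KO+CFLAR against WT. For those libraries against KO+STAMBP, 3 rows were called by DESeq2, 3 with only these groups fitted, 7 with no low-count filter and 2 with the replicate block. KO1 against KO2 gave 2 with no low-count filter. The cause was not tested.

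Leaving out 1 library at a time gave these ranges of rows. Knockout against WT had 53 to 64 called, 23 to 33 higher and 26 to 33 lower; KO1 against WT 47 to 57 called, KO2 against WT 49 to 65 and KO1 against KO2 0 to 1 (1 without KO1 replicate 2). KO+STAMBP against the knockout had 48 to 58 called, 35 to 40 higher and 13 to 18 lower, and against WT 23 to 37 called, 23 to 36 higher and 0 to 1 lower. The libraries labelled KO+CFLAR had, against the knockout, 48 to 58 called, 28 to 36 higher and 15 to 25 lower, against WT 9 to 30 called, 7 to 28 higher and 1 to 2 lower, and against KO+STAMBP 0 to 3 called. Where 1 library remained in a group, its spread is taken from the others.

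Leaving out both libraries labelled KO+CFLAR, chosen after seeing the data, gave 34 rows higher and 29 lower in knockout against WT, and 36 higher and 1 lower in KO+STAMBP against WT. Replicate numbers are shared by the groups, and the labels do not say whether they pair the libraries. Replicate differences correlated between groups at -0.02 to 0.07, a weak relation that does not settle the pairing. With the replicate block, knockout against WT had 33 higher and 31 lower, beside 31 and 30 without it.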
